A study of Mus musculus with 8 samples.

Results

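Transcribed pseudogenes are gene copies that are annotated as non-coding, as a rule because the parent's reading frame is lost, and that still give rise to RNA. In the deposited expression table of this mouse cortex study, 56 of 13996 genes carried this class. They comprised 34 transcribed processed pseudogenes, which arose from reverse-transcribed mRNA, and 22 transcribed unprocessed pseudogenes, which arose from duplicated DNA and can keep introns. Members were taken by the class in the table, without use of their expression. All 56 passed the filter on low values, and all are annotated on GRCm38 in GENCODE release M21, 44 of them under a newer symbol that is given here in brackets.

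The study compared the brain cortex of 4 mice on a normal (conventional) diet with that of 4 mice on a high fat diet (HFD, 60% fat by weight). All were male C57BL/6 mice from Orient, obtained at 8 weeks of age, fed for 8 weeks and killed under ether at 16 weeks. Neither the substrain nor the borders of the dissection are stated. Stranded libraries were prepared from rRNA-depleted total RNA of each mouse, so RNAs without a poly(A) tail were kept, and expression was given as FPKM (fragments scaled to transcript length and to the mapped reads of the library), rounded to 0.1.

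Pseudogene transcripts are known as non-coding RNAs of mostly low abundance. Some can pair with antisense RNA or compete with the parent mRNA for microRNAs, and many have no known role. Because a pseudogene and its parent can be alike over long stretches, short reads may not tell them apart, and a pseudogene within another gene can also take up reads from that gene's own transcript. Sequence, parent gene and host gene are therefore described before the values.

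The transcribed sequences of some members and their parents are shown first, beginning with the Pisd copies, which carried the largest changes among the members. Each is given as 90 bases read 5′ to 3′ along the transcript from GENCODE M21 on GRCm38, with bases that differ from the parent in capitals. Pisd encodes phosphatidylserine decarboxylase, the mitochondrial enzyme that makes phosphatidylethanolamine from phosphatidylserine. Its pseudogenes Pisd-ps1 (chr11:3125904-3131004, + strand, 7 exon blocks) and Pisd-ps2 (chr17:3076578-3084183, − strand, 7 exon blocks) are unprocessed. The stretch below lies at chr5:32740700-32740789 (− strand) in Pisd, at chr11:3127479-3127568 (+ strand) in Pisd-ps1 and at chr17:3080945-3081034 (− strand) in Pisd-ps2.

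Pisd: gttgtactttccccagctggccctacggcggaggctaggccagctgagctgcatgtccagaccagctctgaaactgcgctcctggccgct
Pisd-ps1: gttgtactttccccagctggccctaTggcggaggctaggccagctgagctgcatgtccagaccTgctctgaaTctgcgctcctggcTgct
Pisd-ps2: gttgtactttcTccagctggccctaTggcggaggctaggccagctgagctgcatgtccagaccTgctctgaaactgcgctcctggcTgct

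Each pseudogene differed from Pisd at 4 of the 90 bases. Over the aligned coding sequence, identity to Pisd was 95.2% for Pisd-ps1 and 93.8% for Pisd-ps2, and the pair shared 94.1% with each other. At the length of a single read (100 bases), 0% of the stretches of Pisd-ps1 and 3% of those of Pisd-ps2 occurred unchanged in an M21 transcript of another gene. Pisd-ps3 was not among the transcripts compared.

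A pair that reads of this length cannot tell apart in the printed window is Tmem181a, which encodes a multi-pass membrane protein, at chr17:6297852-6297941 (+ strand), and Tmem181b-ps at chr17:6448824-6448913 (− strand). The printed stretch has no difference in 90 bases. The pair was less alike beyond it, with 90.1% identity over the 929 aligned coding bases and 98.8% over the best local match of 1680 bases.

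Tmem181a: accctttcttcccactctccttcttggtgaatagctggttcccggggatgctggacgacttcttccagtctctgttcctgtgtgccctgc
Tmem181b-ps: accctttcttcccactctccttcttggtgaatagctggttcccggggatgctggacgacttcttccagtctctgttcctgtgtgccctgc

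In the printed window reads also cannot tell apart Rpl12, a protein of the large ribosomal subunit, at chr2:32962574-32962663 (+ strand), and its processed copy RP23-460F17.1 (Gm10275) at chr10:29699090-29699179 (− strand). This copy stands here for the members that are nearly a full copy of an abundant mRNA. It is identical to Rpl12 at 495 of 495 coding bases.

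Rpl12: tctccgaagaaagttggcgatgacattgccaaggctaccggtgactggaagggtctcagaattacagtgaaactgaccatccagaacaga
Gm10275: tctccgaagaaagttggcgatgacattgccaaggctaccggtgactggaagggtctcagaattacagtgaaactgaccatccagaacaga

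In Tmem181b-ps, 27% of the 100-base stretches occurred in a transcript of a gene elsewhere in the genome, and in Gm10275 99.8% did. Among the 56 members, 35 held no stretch found elsewhere and 21 held some. In 5 members most stretches were shared with a gene elsewhere, namely Gm10275 with Rpl12, AC110186.1 (Gm15500) with Rpl5 at 99.9%, RP24-68H1.1 (Gm1821) with the ubiquitin gene Ubb at 70.4%, RP23-269H21.1 (Gpx4-ps2) with the lipid peroxidase gene Gpx4 at 67.8%, and RP23-285D3.2 (Gm12346) with the chaperone gene Hsp90aa1 at 58.4%. Sharing with a gene that overlaps the member at its own locus was counted apart. Most stretches lay in the transcript of such a gene in 6 members, with 100% in RP24-251F16.2 (Gm17119), RP23-198F11.2 (Gm15725) and RP23-442M18.2 (Gm8707), 73.5% in RP23-340P19.3 (Gm5977), 67.8% in RP23-413K16.2 (Gm13548) and 53.2% in Nlrp5-ps. Only 28 of the 56 members shared no stretch of their longest transcript with any other gene. Of the 5 members that were mostly shared with a gene elsewhere, 0 passed the threshold described next, at an unadjusted p of 0.14 or more, and of the 6 mostly shared with an overlapping gene 3 passed, namely Gm17119, Gm15725 and Nlrp5-ps. Over all genes tested, 33.1% passed.

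The cortex of the HFD mice contained more RNA of several transcribed pseudogenes, above all of the Pisd copies. Of the 56 members, 13 (23.2%) differed between the diets at an adjusted p below 0.05 (limma on log2(FPKM + 0.1), Benjamini-Hochberg over 13982 genes), beside 33.1% of all genes tested. Of these, 12 were higher on HFD and 1 was lower, beside 17.7% and 15.3% of all genes. With a change over 1.5-fold required as well, 11 members (19.6%) remained, all higher, beside 7.13% of all genes, of which 4.23% were higher and 2.9% lower. The 4 values of one diet lay apart from the 4 of the other in 11 members (19.6%), beside 31.9% of all genes. Members thus passed the threshold at a lower share than all genes, and passed threshold and fold together at a higher share. The latter share was also above that of all genes in some other classes. It was 16.8% in processed and 5.88% in unprocessed pseudogenes not marked as transcribed, and 12.3% in lncRNA classes. At 1 to 5 FPKM it was 13.2% of members and 10.3% of protein coding genes. A list chosen this way was given no test of its own. In bulk tissue, more cells of a type and more RNA per cell cannot be told apart.

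The median log2 fold change of HFD over normal was 0.27 over the 56 members and 0.003 over all genes. It was above 0 in 39 members and below 0 in 17. The filter used the mean over both diets, so a member low on one diet could enter through the other. RP23-322M5.2 (Gm16523) averaged 0.625 FPKM on the normal diet and 1.45 on HFD, while Gm10275 averaged 1.28 and 0.925. More such members were below 1 FPKM on the normal diet than on HFD. The split by sign, the 12 higher and 1 lower, and the median hold only past this filter. At a mean of at least 2 FPKM, 9 members passed higher and 1 lower (27.8% together, beside 34.9% of all genes). Protein coding genes had a median of -0.014, lncRNA classes 0.166 and processed pseudogenes that are not marked as transcribed 0.235, and of the last 29 of 143 passed the threshold, 25 of them higher. Unprocessed members and processed members had medians of 0.276 and 0.20. Of the 22 unprocessed members 6 passed, all higher, and of the 34 processed members 7 passed, of which 6 were higher.

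Most members were expressed near the lower bound of the table. Their median level was 2.61 FPKM with a range of 1.0 to 91.9 FPKM, and 20 of 56 were below 2 FPKM, where the rounding to 0.1 is coarse. The spread between mice of a diet was wide, with a median coefficient of variation of 21% on the normal diet and 18.9% on HFD, beside 8.45% and 7.08% over all genes. Of the 38 members at 1 to 5 FPKM, 5 passed (13.2%), beside 22.3% of protein coding genes in that range. Of the 18 members at 5 FPKM or more, 8 passed (44.4%), beside 37.0% of protein coding genes.

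**Figure D1:**
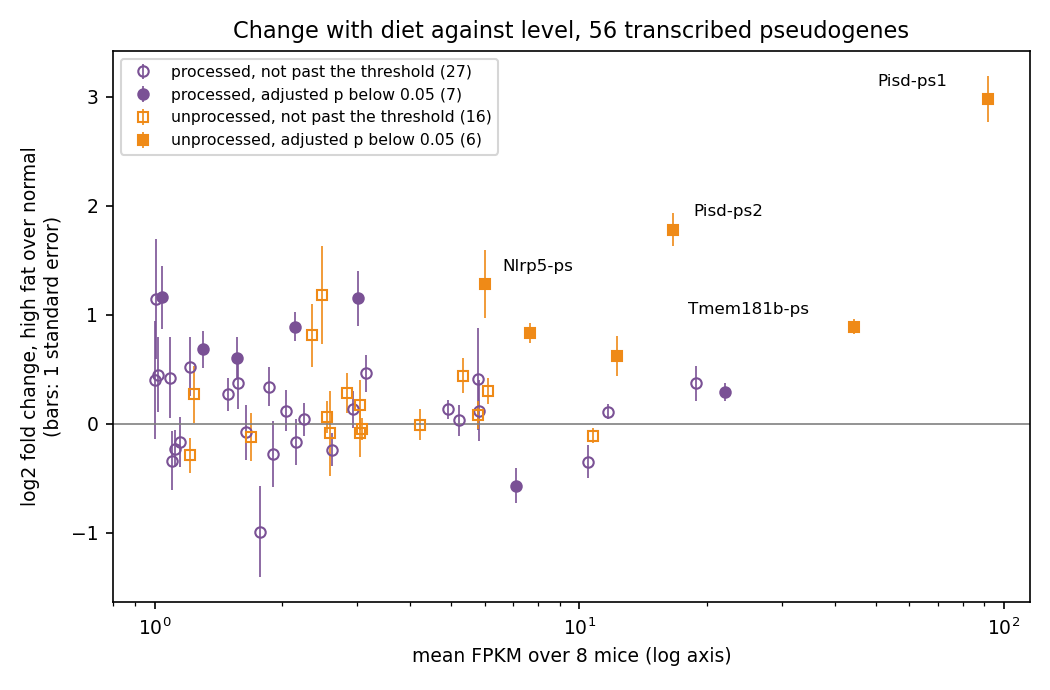
Each point is 1 of the 56 transcribed pseudogenes, with the mean FPKM over 8 mice on the x axis (log axis) and the log2 fold change of HFD over normal with 1 standard error on the y axis. Filled points passed the adjusted threshold, with Pisd-ps1 at 2.98 and Pisd-ps2 at 1.78 furthest up, and 1 filled point, RP23-153H17.7, lies below 0.

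Pisd-ps1 was the most abundant member and the one with the largest change. It had 19.1, 14.7, 22.2 and 25.5 FPKM in the 4 normal mice and 172.4, 105.6, 207.7 and 167.9 FPKM in the 4 HFD mice. The lowest HFD mouse was thus far above the highest normal mouse. The means were 20.4 ± 4.6 and 163 ± 42.4 FPKM (SD, n = 4 each), a ratio of 8.02, and the log2 fold change was 2.98 ± 0.21 (SE, adjusted p = 0.000126). Among the 13982 genes tested, only 1 had a higher fitted rise.

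Pisd-ps2, on another chromosome, had 6.3, 7.5, 8.3 and 7.4 FPKM in normal mice and 24.9, 19.7, 34.0 and 25.1 FPKM in HFD mice. Again the diets did not overlap, with means of 7.38 ± 0.822 and 25.9 ± 5.94 FPKM. Its log2 fold change was 1.78 ± 0.15 (adjusted p = 0.000188), the third highest of all genes tested. HFD mouse 3 had the highest and HFD mouse 2 the lowest level of both pseudogenes among the HFD mice.

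Pisd itself changed far less. It had 23.6, 23.5, 20.3 and 26.0 FPKM in normal mice and 28.3, 28.7, 31.2 and 32.2 FPKM in HFD mice, a log2 fold change of 0.37 ± 0.08 (adjusted p = 0.00681). Pisd-ps1 was at 0.877 ± 0.205 times the level of Pisd in normal mice and at 5.41 ± 1.3 times in HFD mice, both per length. The log2 ratio of Pisd-ps1 to Pisd was higher on HFD by 2.62, and that of Pisd-ps2 to Pisd by 1.41. For each, the exact two-sided permutation test over the 70 assignments of mice to diets gave p = 0.0286, the smallest that 4 against 4 mice can give. In these mice the pseudogenes and the parent did not move by the same amount. The test was unadjusted over the 48 pairs and used the values that had passed the threshold, so it is no separate support.

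Within 250 kb of Pisd-ps1, 8 genes were measured, of which 3 were higher and 1 was lower on HFD. The nearest, Sfi1, had a log2 fold change of 0.17 (adjusted p = 0.247), and Drg1, a GTP-binding protein gene, fell by 0.31 (adjusted p = 0.00132). Within 250 kb of Pisd-ps2, 2 genes were measured, and the nearer, Scaf8, rose by 0.17 (adjusted p = 0.0197). Neither neighbourhood held another change of the size of the pseudogene's own.

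Tmem181b-ps (chr17:6438524-6467022, − strand, 17 exon blocks) rose with little spread. It had 33.6, 29.2, 29.5 and 32.7 FPKM in normal mice and 59.6, 62.1, 52.6 and 57.1 FPKM in HFD mice, so that the diets were well apart. The log2 fold change was 0.89 ± 0.07 (adjusted p = 0.000126). Its parent Tmem181a, on the opposite strand nearby, had 14.2 ± 0.356 FPKM in normal and 16.4 ± 0.804 FPKM in HFD mice and rose by 0.21 on the log2 scale (adjusted p = 0.0134). The ratio of pseudogene to parent was 2.2 in normal and 3.54 in HFD mice, a log2 difference of 0.68 (exact permutation p = 0.0286). Dynlt1a, a dynein light chain gene next to Tmem181a, rose by 0.50 on the log2 scale (adjusted p = 0.00491).

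**Figure D2:**
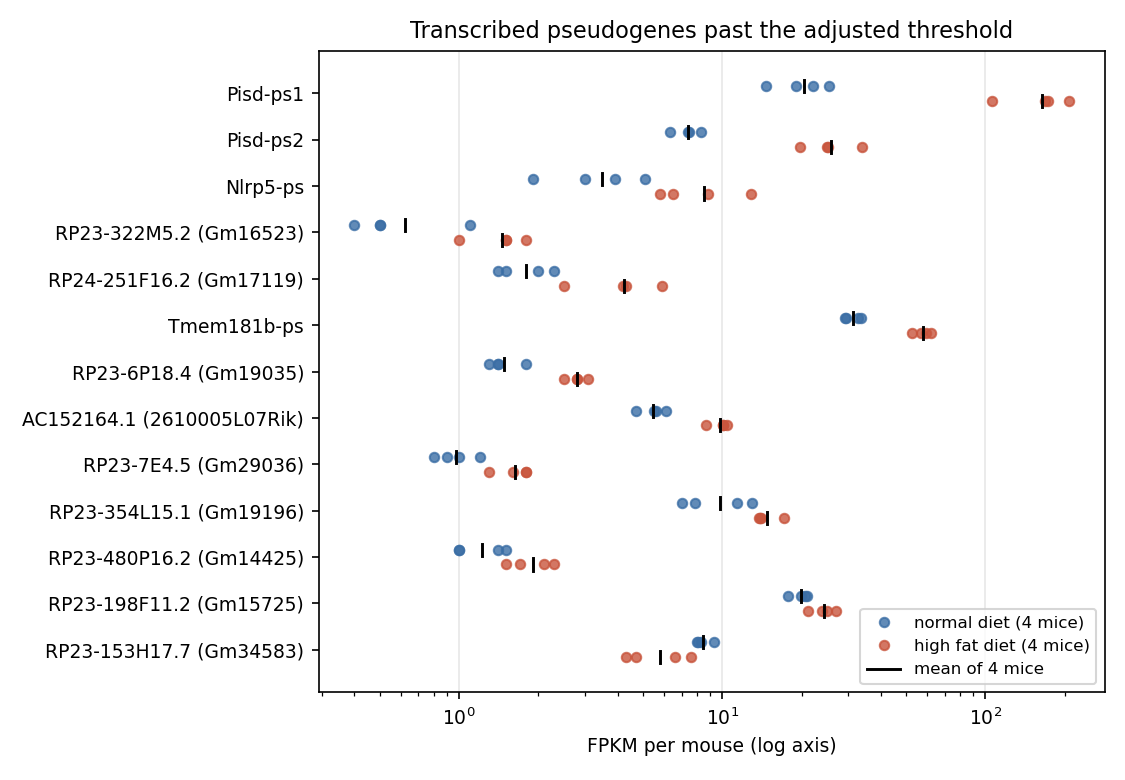
FPKM of each of the 13 members past the adjusted threshold on a log axis, with 1 point per mouse (4 normal, 4 HFD) and a black bar at the mean of each diet. Pisd-ps1 and Pisd-ps2 show the widest gap between diets, the diets overlap in RP23-322M5.2 and meet at 1.5 FPKM in RP23-480P16.2, and RP23-153H17.7 is the only member lower on HFD.

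The remaining unprocessed members past the threshold were AC152164.1 (2610005L07Rik), Nlrp5-ps and RP23-354L15.1 (Gm19196). AC152164.1 (chr8:20385782-20424814, − strand) is partly alike to Cdh11, the gene of the adhesion protein cadherin-11, at 92.8% identity over the aligned part. It had 4.7, 6.1, 5.6 and 5.5 FPKM in normal mice and 10.4, 10.1, 8.7 and 10.1 FPKM in HFD mice, without overlap, and a log2 fold change of 0.83 ± 0.09 (adjusted p = 0.000667). Cdh11 rose by 0.21 (adjusted p = 0.0322).

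AC152164.1 belongs to a family of copies, and 23.4% of its 100-base stretches recur in other transcripts. Of 5 measured copies that share such stretches, RP23-152N9.4 (Gm21092) rose by 0.97 (adjusted p = 0.0023) and RP23-276L18.1 (Gm21811) by 0.51 (adjusted p = 0.00749), both within 250 kb of it. The other three, Gm10557, AC148089.1 (Gm6483) and RP23-468H22.7 (Gm3365), had log2 fold changes of 0.24, 0.03 and 0.43 and did not pass the threshold. The sources used here do not state how fragments that match several copies were divided among them.

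Nlrp5-ps (chr7:14530652-14622479, − strand, 14 exon blocks) is a copy of Nlrp5, a NOD-like receptor gene known for its role in the oocyte and early embryo. Nlrp5 itself is not in the table. The pseudogene had 3.0, 5.1, 3.9 and 1.9 FPKM in normal mice and 8.8, 12.9, 6.5 and 5.8 FPKM in HFD mice. The diets did not overlap, although the level varied more than 2-fold within each. Its log2 fold change was 1.28 ± 0.31 (adjusted p = 0.0131). Of its 100-base stretches 3.2% recur in Nlrp5 and a further 53.2% lie in the transcript of an overlapping gene. The only gene annotated within it on the same strand is Vmn1r90, a vomeronasal receptor gene that is not in the table, so most of the sequence cannot be assigned to Nlrp5-ps alone.

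Gm19196 (chr12:21543307-21554521, + strand) is a partial copy of Taf1b, which encodes a subunit of the RNA polymerase I factor SL1. It had 11.4, 7.0, 13 and 7.9 FPKM in normal mice and 14, 13.9, 13.8 and 17.2 FPKM in HFD mice, a log2 fold change of 0.62 ± 0.18 (adjusted p = 0.0276). The normal mice were widely spread, and HFD mouse 4 stood above the other 3. Taf1b had a log2 fold change of 0.17 (adjusted p = 0.271), and the ratio of the pair did not pass (exact permutation p = 0.171).

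Of the 7 processed members past the threshold, 6 lie inside another measured gene on the same strand. Rounded values near 1 FPKM make their single values coarse. RP24-251F16.2 (Gm17119, chr3:14564402-14564681, + strand) is a copy of the ribosomal protein gene Rps13 and lies wholly within a last exon of Lrrcc1, mostly in its 3′ UTR. It had 1.4, 2.3, 2.0 and 1.5 FPKM in normal mice and 5.9, 4.3, 2.5 and 4.2 FPKM in HFD mice. HFD mouse 3 was just above the highest normal mouse. The log2 fold change was 1.15 ± 0.25 (adjusted p = 0.00751), while Lrrcc1 had -0.01 (adjusted p = 0.918) and Rps13 0.08 (adjusted p = 0.207). All 100-base stretches of Gm17119 occur in a Lrrcc1 transcript, so the RNA of the pair cannot be told apart by sequence.

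RP23-6P18.4 (Gm19035) lies within the protocadherin alpha cluster on chromosome 18 and is distantly alike to Hsf2bp, which is not in the table. It had 1.8, 1.4, 1.4 and 1.3 FPKM in normal mice and 3.1, 2.8, 2.5 and 2.8 FPKM in HFD mice, without overlap, and rose by 0.89 ± 0.13 on the log2 scale (adjusted p = 0.00144). Of the 11 measured genes whose span contains it on the same strand, nearly all of them protocadherin alpha genes, 1 rose, Pcdha11 by 0.44 (adjusted p = 0.022).

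RP23-322M5.2 (Gm16523, chr2:39157486-39162235, − strand) lies in an intron of Scai and is alike to the mitochondrial ribosomal protein gene Mrpl40 over 13.2% of its transcript, at 86.9% identity. It had 1.1, 0.4, 0.5 and 0.5 FPKM in normal mice and 1.8, 1.0, 1.5 and 1.5 FPKM in HFD mice. Normal mouse 1 was above HFD mouse 2, so the diets overlapped. Its log2 fold change was 1.16 ± 0.29 (adjusted p = 0.0152). Mrpl40 fell by 0.39 (adjusted p = 0.00329), and was among the 11 measured parents of the members past the threshold the only one that changed in the opposite direction, and Scai had 0.08 (adjusted p = 0.359).

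Gm29036 (chr5:45768867-45769743, − strand), which the table lists under a clone name, a copy of the RNA polymerase III subunit gene Polr3f in an intron of Lcorl, had 1.0, 0.9, 0.8 and 1.2 FPKM in normal mice and 1.3, 1.8, 1.8 and 1.6 FPKM in HFD mice. The lowest HFD mouse was 1 rounding step above the highest normal mouse. Its log2 fold change was 0.68 ± 0.17 (adjusted p = 0.0136), beside -0.12 for Polr3f and 0.15 for Lcorl, neither of which passed.

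RP23-480P16.2 (Gm14425, chr2:74855706-74856311, + strand) is a copy of Rpl10 in an intron of Mtx2, the gene of a mitochondrial outer membrane protein. It had 1.0, 1.0, 1.4 and 1.5 FPKM in normal mice and 1.7, 2.3, 1.5 and 2.1 FPKM in HFD mice, with 1 HFD mouse at the level of the highest normal mouse. The log2 fold change was 0.60 ± 0.19 (adjusted p = 0.0353), while Mtx2 fell by 0.16 (adjusted p = 0.0452).

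RP23-198F11.2 (Gm15725, chr16:37882542-37883631, + strand), a copy of the beta-actin gene Actb, lies wholly within the 3′ UTR of Lrrc58. It had 20.7, 21, 17.7 and 19.9 FPKM in normal mice and 24.0, 25.0, 27.1 and 21.1 FPKM in HFD mice, with HFD mouse 4 just above the highest normal mouse. The change was small, 0.29 ± 0.08 on the log2 scale (adjusted p = 0.0246). Lrrc58 was at 25 ± 0.411 and 24.1 ± 0.802 FPKM (adjusted p = 0.353). All 100-base stretches of Gm15725 occur in a Lrrc58 transcript, so its own RNA cannot be told apart from that of Lrrc58 by sequence.

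The only member that fell was RP23-153H17.7 (Gm34583, chr5:73380560-73391102, + strand), with a processed copy of the ribosomal protein gene Rpl29 at 88.5% identity. It had 8.3, 9.3, 8.0 and 8.1 FPKM in normal mice and 7.6, 4.7, 6.6 and 4.3 FPKM in HFD mice. All HFD mice were below all normal mice, HFD mouse 1 by a small margin. The log2 fold change was -0.57 ± 0.16 (adjusted p = 0.0265), and Rpl29 had 0.04 (adjusted p = 0.59).

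Across the set, a parent gene was found by sequence for 53 members and measured for 48, over 43 different parent genes. Of the members, 21 were at least 90% identical to it over the aligned part. That part was short in some pairs, down to 5.3% of the member's transcript for RP23-200C3.7 (Gm2011) with Chpt1. A short or weak match of this kind need not be the gene of origin. The parents included ribosomal protein genes for 10 members and Gapdh for 4. Of the 11 members past the threshold with a measured parent, the parent changed in the same direction in 4 (Pisd for both copies, Tmem181a and Cdh11) and in the opposite direction in 1. The ratio of pseudogene to parent did not overlap between the diets in 12 of the 48 pairs, beside 31.9% of all single genes tested. In 10 of these 12 pairs the member had itself passed the threshold, which uses the same values and so is no separate support. The other pairs were RP24-346B15.3 (4930431P19Rik) with Btf3, whose log2 ratio differed by 0.37, and RP24-288B1.2 (A930017M01Rik) with Smg5, whose log2 ratio differed by 0.27. For each, the exact permutation test gave p = 0.0286, unadjusted over the 48 pairs, a number of tests at which chance can yield such values. Their matches covered 23.7% and 35.9% of the member's transcript, at 81.3% and 64.8% identity.

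**Figure D3:**
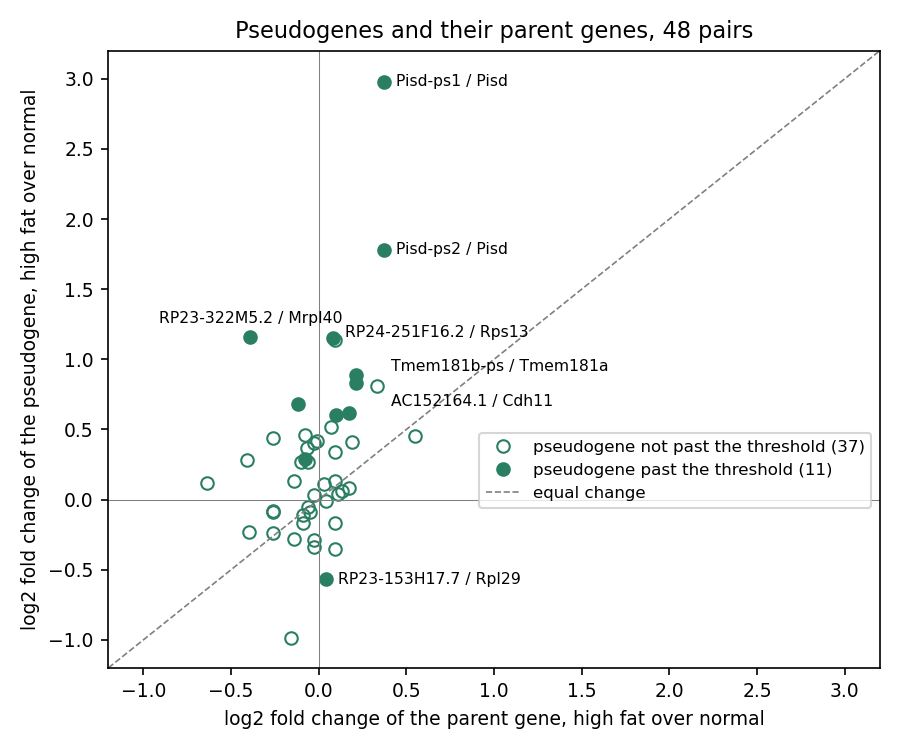
Log2 fold change of HFD over normal of the parent gene (x axis) and of the pseudogene (y axis) for 48 pairs, with filled points for the 11 pseudogenes past the adjusted threshold and a dashed line of equal change. The parents lie between -0.64 and 0.55, while Pisd-ps1 reaches 2.98 and Pisd-ps2 1.78 with the same parent at 0.37.

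Where a member was nearly a full copy, its level stayed low beside an abundant parent and both values could hold fragments of either. Gm10275 had 1.4, 2.0, 1.0 and 0.7 FPKM in normal mice and 1.0, 0.8, 0.9 and 1.0 FPKM in HFD mice, beside 133 ± 7.47 and 131 ± 5.79 FPKM of Rpl12, and its log2 fold change was -0.34 (adjusted p = 0.368). Gm12346 had -0.23 (adjusted p = 0.308) while Hsp90aa1 fell by 0.40 (adjusted p = 0.00152), and Gm1821 had -0.24 (adjusted p = 0.24) while Ubb fell by 0.26 (adjusted p = 0.0127). The log2 ratios of these 2 pairs differed by 0.17 and 0.02 between diets (exact permutation p = 0.429 and p = 0.943). Rpl37rt, a retrotransposed copy of Rpl37, ranged from 2.0 to 10.9 FPKM within the normal diet alone, and its log2 fold change was 0.41 (adjusted p = 0.534).

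A total of 17 members overlapped a measured gene on the same strand, and 6 of them (35.3%) passed the threshold, all higher. Over all genes tested 33.1% passed, 17.7% higher and 15.3% lower. Of 8 members that overlapped a measured gene on the opposite strand only, 0 passed in limma and 1 had an unadjusted p below 0.05, and of 31 without an overlapping measured gene 7 passed (22.6%). No difference between these groups was tested. The ratio of member to host gene did not overlap between diets in 14 of 27 pairs on the same strand, of which 11 pairs share a single member, Gm19035, with 9 of the 14. Such a share was not taken over other gene pairs, and the diets did not overlap in 31.9% of all single genes tested.

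The summed FPKM of the 56 members was 266, 244.3, 261.3 and 271.4 in normal mice and 504.5, 423.8, 523.3 and 484.3 in HFD mice. Pisd-ps1 took 7.77 ± 1.48% of this sum on the normal diet and 33.4 ± 6.16% on HFD. Without it the sums were 240 ± 7.98 and 321 ± 7.76 FPKM. For the 53 members other than the Pisd copies and Tmem181b-ps they were 202 ± 6.39 and 237 ± 7.84 FPKM, and the lowest HFD mouse at 229 was still above the highest normal mouse at 207.

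**Figure D4:**
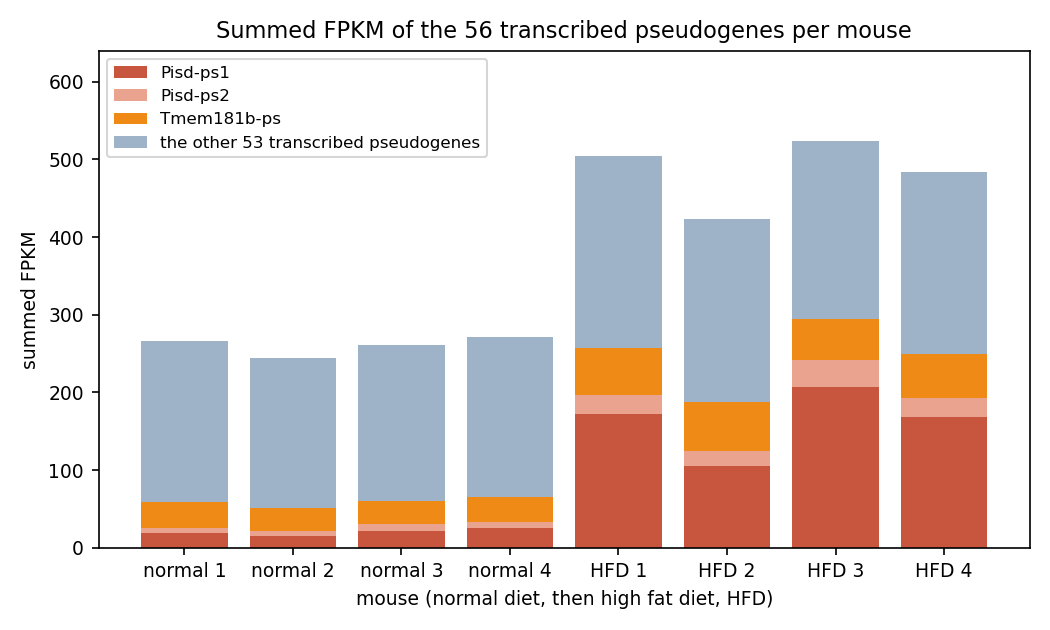
Summed FPKM of the 56 transcribed pseudogenes in each of the 8 mice, stacked from 0 as Pisd-ps1, Pisd-ps2, Tmem181b-ps and the other 53 members. The HFD mice reach 423.8 to 523.3, above the 244.3 to 271.4 of the normal mice, and most of the gap is Pisd-ps1.

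Of the 43 members that did not pass, 27 had a log2 fold change above 0, and 7 had an unadjusted p below 0.05. The log2 fold changes of these 43 members ran from -0.99 to 1.18. The members just inside the threshold were Gm34583, Gm19196 and Gm14425, at adjusted p values of 0.0265, 0.0276 and 0.0353. Just outside were RP23-344G11.3 (Gm18190), a copy of a zinc finger gene, at 0.0577, RP23-45K23.3 (Gm49327) at 0.0626 and RP23-231M6.4 (Gm5176), a copy of the chromatin protein gene Hmgb1, at 0.0657.

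The lowest and the highest of these fold changes came from members with wide spread. RP23-359M9.5 (Gm3086), a copy of the AAA ATPase gene Ruvbl1, had 2.8, 2.2, 1.6 and 2.5 FPKM in normal mice and 1.1, 1.1, 0.4 and 2.5 FPKM in HFD mice (log2 fold change -0.99, adjusted p = 0.0951). Zcwpw2 had 2.9, 0.7, 1.2 and 1.2 FPKM in normal mice and 4.8, 1.7, 5.1 and 2.2 FPKM in HFD mice (1.18, adjusted p = 0.0688). In both, the diets overlapped.

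Rps4l, a copy of the ribosomal protein gene Rps4x and among the 5 most abundant members, had 13.5, 16.8, 21.9 and 14.1 FPKM in normal mice and 25.2, 20.5, 16.7 and 22.5 FPKM in HFD mice. The diets overlapped, and its log2 fold change of 0.37 did not pass (adjusted p = 0.113). Ube2d-ps, a copy of a ubiquitin-conjugating enzyme gene, had 10.7 to 12.4 FPKM in normal and 9.7 to 11 FPKM in HFD mice, with a log2 fold change of -0.11 (adjusted p = 0.223). Gpr137b-ps was at 1.32 and 1.27 times the level of its parent Gpr137b, with a log2 fold change of -0.01 (adjusted p = 0.945). Ppp4r1l-ps had -0.29 (adjusted p = 0.188), AC119897.1 (2810025M15Rik, alike to Rpl37a) -0.35 (adjusted p = 0.098) and RP23-171J18.1 (Gm5124), alike to the nucleolar gene Nolc1, 0.11 (adjusted p = 0.286).

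Markers of cell types of the cortex and of tissue next to it differed between the same mice. The 12 markers of cortical projection neurons were all listed, with summed levels of 367 to 532.2 FPKM in normal and 562 to 688.2 FPKM in HFD mice. Of these 12, 8 passed the threshold, 7 higher and 1 lower on HFD. Of 10 striatal markers 9 were listed, at 240.8 to 444.9 FPKM in normal and 79.7 to 88.4 FPKM in HFD mice, and all 9 were lower on HFD. All 10 oligodendrocyte markers were lower as well, at 2236 to 3665.7 and 1536 to 2126.3 FPKM. Of 9 cerebellar markers 8 were listed, and their sums were 22, 260.7, 353 and 78.5 FPKM in normal mice 1 to 4 and 16.2 to 19 FPKM in HFD mice, with Gabra6 listed at 0 in HFD mouse 1. Of the 8 cerebellar markers, 5 passed the threshold, all lower on HFD. The sums of choroid plexus markers were 344.8 to 730 FPKM (normal) and 22.8 to 948 FPKM (HFD), the highest of all in HFD mouse 4. All 4 ependymal and all 5 blood markers passed lower on HFD, as did 2 of 5 choroid plexus, 2 of 5 endothelial and 1 of 7 thalamic markers. Of 8 astrocyte markers 3 passed lower and 1 higher, and of 5 oligodendrocyte precursor markers 2 passed higher. Of 7 listed microglial markers 0 passed. The part of other tissue in the members' changes was not tested by these sums.

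Normal mouse 1 had a cerebellar sum of 22 FPKM, but also the highest striatal sum (444.9 FPKM) and an oligodendrocyte sum of 3017.7 FPKM, and its levels of Pisd-ps1 and Tmem181b-ps were 19.1 and 33.6 FPKM. Without normal mice 2 and 3, 10 members passed (17.9%, beside 19.6% of all genes), 8 of them among the 13, and the log2 fold changes were 2.84 for Pisd-ps1, 1.88 for Pisd-ps2, 0.80 for Tmem181b-ps and 0.93 for AC152164.1. With the cerebellar marker level of each mouse as a covariate, 5 members passed (beside 3.51% of all genes), namely these 4, with 2.86, 2.03, 0.72 and 1.08, and RP23-33N12.2 (Zfp125) with 0.77. The remaining 9 of the 13 did not pass with the covariate, which itself differs between the diets.

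The calls differed in how far they rested on single mice. When each mouse was left out in turn, Pisd-ps1, Pisd-ps2, Tmem181b-ps, AC152164.1, Gm19035, Gm17119, Nlrp5-ps, Gm29036 and Gm16523 passed in 8 of 8 fits. Gm34583 passed in 5 and was lost without normal mouse 2, HFD mouse 2 or HFD mouse 4 (adjusted p up to 0.0746). Gm15725 passed in 4 and was lost without normal mouse 3 or HFD mouse 1, 2 or 3 (adjusted p up to 0.0664). Gm19196 and Gm14425 passed in 3 of 8. The first was lost without normal mouse 2 or 4 or HFD mouse 1, 2 or 4 (adjusted p up to 0.0699), and the second without normal mouse 1 or 2 or HFD mouse 1, 2 or 4 (adjusted p up to 0.0996).

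Some members came past the threshold only when a mouse was left out. Without HFD mouse 3, AC119897.1 had a log2 fold change of -0.49, Gm5176 of 0.63 and RP23-29I5.2 (B230303A05Rik) of 0.45, with adjusted p values of 0.014, 0.00873 and 0.0344. The last of these had 2.9 FPKM in HFD mouse 3 beside 7.0 to 7.6 FPKM in the others. Rps4l passed without normal mouse 3 (0.51, adjusted p = 0.025), Gm18190 without normal mouse 4 (1.08, adjusted p = 0.00804) and Gm49327 without normal mouse 1 (0.54, adjusted p = 0.0327). Each of these 6 members had a log2 fold change of the same sign over all 8 mice.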

How the data were processed

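Per the labels and the methods, cortex RNA of 4 normal diet and 4 HFD mice was sequenced (paired-end, 100 cycles). The deposited FPKM values were computed by the authors with Cuffnorm on the GENCODE annotation, after trimming (Trimmomatic) and alignment by STAR to mm10. The files hold no counts, so the depth behind a value is unknown. The sum of FPKM per mouse was 562431 to 639142.3.

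The deposited FPKM were compared as log2(FPKM + 0.1) with limma 3.58.1 (variance trend, two-sided) in R 4.3.3, over the 13982 genes that had no 0 and averaged 1 FPKM or more, with Benjamini-Hochberg adjustment at 0.05. Fold changes on this scale understate those of low genes. This stands in place of the t-test of the methods, with its filter. The authors' second quantification by Salmon and edgeR was not used here. Tested on simulated data of 13982 genes, the fit recovered 89 of 100 changes of 2-fold and 96 of 100 of 3-fold and made 10 false calls. The changed genes were drawn at random from all genes tested, whose median level was 9.79 FPKM, beside 2.61 FPKM over the members. These rates therefore do not describe the members.

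Ratios to a parent gene were compared by exact permutation. Parents were taken by BLAST+ 2.17.0 against M21 transcripts (a match in the parent's coding sequence, and among genes within 90% of the best score the measured gene of highest FPKM), and aligned with MAFFT 7.526. Shared stretches are exact 100-base matches of the longest M21 transcript of each member, so exons outside it were not compared. Python 3.11.15 with pandas 2.3.3, scipy 1.17.1 and numpy 2.4.6 made the tables, and matplotlib 3.10.9 the figures. M21 held 13977 of the genes. The members and marker lists were chosen with earlier results of these data known. Parents by sequence, host genes, neighbours and shared stretches were added after the values were seen.

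Members were described singly where they passed the threshold, were among the 5 most abundant, lay just inside or outside the threshold, had a named parent (up to 12 pairs) or an outlying mouse. Zcwpw2, Gm3086, Gm10275, Gm12346, Gm1821, Rpl37rt, Gm15500, Zfp125, 4930431P19Rik and A930017M01Rik, and the genes other than parents, were named after their values were seen. The replicate number is only a name: same-numbered mice of the 2 diets deviated from their diet means with correlations of -0.109 to -0.028 across genes. Alternatives were 0.5 and 1 as the added constant, no filter and a mean of at least 2 FPKM, median-ratio scaling and quantile normalization, no variance trend, a replicate block, a cerebellar marker covariate, each mouse left out, and a fit without normal mice 2 and 3, which was chosen after seeing the data.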

Additional observations from a re-analysis of the deposited data

Results flagged for a closer look

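In 10 of 112 groups of 4 mice, 1 mouse stood apart from the other 3 by Dixon's criterion, which chance alone would meet in about 1 of 20 groups. Among members past the adjusted threshold, RP23-322M5.2 (Gm16523) was at 1.1 FPKM in normal mouse 1 and at 0.4 to 0.5 FPKM in the other normal mice. RP23-354L15.1 (Gm19196) was at 17.2 FPKM in HFD mouse 4 and at 13.8 to 14 FPKM in the others.

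Among the members that did not pass, HFD mouse 3 stood apart in 3. It had 4.3 FPKM of RP23-344G11.3 (Gm18190) beside 2.4 to 2.6, 2.5 FPKM of RP23-66A20.1 (Gm17916) beside 1.1 to 1.2, and 2.9 FPKM of RP23-29I5.2 (B230303A05Rik) beside 7.0 to 7.6. HFD mouse 1 had 6.6 FPKM of RP23-269H21.1 (Gpx4-ps2) beside 4.7 to 5.0. Normal mouse 1 had 5.1 FPKM of RP24-238B3.4 (1810014B01Rik) beside 1.8 to 2.0, and normal mouse 4 had 12.4 FPKM of Ube2d-ps beside 10.7 to 10.9. Normal mouse 3 had 0.8 FPKM of RP24-231B8.5 (Gm3325) beside 1.5 to 1.6, and 1.1 FPKM of RP23-361B11.3 (Gm47135) beside 2.0 in each of the others.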

How the results depend on the processing

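The count of 13 members was the same with 0.5 or 1 as the added constant, without the filter, under median-ratio scaling and quantile normalization, and without the variance trend. This was 23.2% of members in each of these fits, beside 30.5% to 33.2% of all genes. The median log2 fold change, 0.27 in the main fit, was 0.202 and 0.153 with 0.5 and 1 as the added constant. It was 0.264 under median-ratio scaling and 0.194 under quantile normalization. With a mean of at least 2 FPKM the count was 10 of 36 members (27.8%, beside 34.9% of all genes) and the median 0.152. With the cerebellar marker covariate the count was 5 (8.93%, beside 3.51% of all genes) and the median log2 fold change 0.051. In that fit RP23-29I5.2, RP23-45K23.3 and RP24-231B8.5, none of them past the threshold, turned to -0.11, -0.07 and -0.07. Leaving out 1 mouse at a time gave counts of 10 to 15 (17.9% to 26.8%, beside 23.6% to 33.0% of all genes) and medians of 0.114 to 0.287. In none of these fits was the share of members above that of all genes. The lowest median came without normal mouse 2. In these fits RP23-269H21.1 ran from -0.09 to 0.10 and RP24-238B3.4 from -0.37 to 0.25 and did not pass the threshold, RP23-29I5.2 ran from 0.00 (just below 0, without HFD mouse 4) to 0.45 and passed without HFD mouse 3, and the log2 ratio of Ube2d-ps to its parent ran from -0.07 to 0.01. Without normal mice 2 and 3 the median was 0.139, and RP23-29I5.2 turned to -0.07. In that fit Gm16523, Gm29036, Gm15725, Gm34583 and Gm14425 no longer passed. The log2 ratio of RP23-480P16.2 (Gm14425) to its parent was 0.37 and 0.28 with constants of 0.5 and 1 and no longer reached the smallest p. The same-numbered mice did not pair, and with the replicate number as a block 12 members passed (21.4%, beside 24.2% of all genes), 10 of them among the 13. The causes were not tested. Levels near 1 FPKM rest on few rounding steps, and no read counts were used, so the counting error of the low members is unknown.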
